A study of Rattus norvegicus with 6 samples.

Results

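The renin-angiotensin system and the peptidases that work on its peptides were examined in the renal cortex of 6 male Sprague-Dawley rats (Crl:CD(SD)), bought at 5 weeks of age. The vehicle group (VC) of 3 animals received corn oil for 4 weeks, and the treated group of 3 animals received the diaryl sulfone named sulfone bis(p-chlorophenyl) at 250 mg/kg/day over the same 4 weeks. Each animal gave 1 sample on 1 Agilent single-colour rat array. The set held 8 genes (Agt, Ace, Agtr1a, Mas1, Mme, Enpep, Anpep and Atp6ap2), taken as every non-control probe whose accession matched one of them in RefSeq. That gave 13 of 61537 probes, of which 12 were well above background on all 6 arrays and were tested. The remaining probe, that of Mas1, was not. With Mas1 left out, 7 of the 12118 genes with a tested probe belonged to the set.

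In this system angiotensinogen is cut to angiotensin I, and the converting enzyme ACE trims it to angiotensin II, which acts on AT1 receptors to constrict vessels and hold back salt. Ectopeptidases then shorten or redirect these peptides. Aminopeptidase A and aminopeptidase N remove residues from the amino end of angiotensin II. Neprilysin trims angiotensin I to a shorter peptide that acts on the Mas receptor. In kidney these peptidases sit at high density on the brush border of the proximal tubule, where they also digest filtered peptides.

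Each value below is a log2 signal, the log2 of the scanner's background-subtracted intensity minus the log2 of the same array's 75th percentile. A level of 0 therefore lies at that percentile, and values of 3 animals are listed in the order of animals 1, 2 and 3. Probes bind with different strength, so the level of a single gene is compared only between arrays and not with that of another gene. Signals summed over a marker list weigh its brightest probe most, and each sum is therefore also given without that gene, a choice made after the values were seen. Between 66.1% and 68.2% of probes per array were well above background. Vehicle 1 to 3 and treated 1 shared slide 1, and treated 2 and 3 lay on slide 2. Of the markers of cortex, 12 of 12 proximal tubule genes and 7 of 7 podocyte genes were well above background on every array.

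No member passed the test between the groups. Of the 12 tested member probes, 0 had a limma adjusted p under 0.05, against 0.00738% of all tested probes. At an unadjusted p under 0.05 there were 3, all with a higher treated mean: both Enpep probes and 1 Ace probe. The share of all tested probes with such a p and a higher treated mean was 8.37%. Counted by gene at the brightest probe, 1 of the 7 members (Enpep) had such a p and a higher treated mean. Of all tested genes, 10.1% did so. With each gene taken at its brightest probe, the treated arrays all lay above the vehicle arrays for 2 of the 7 genes (Enpep and Atp6ap2), where 13.9% of all tested genes did so. They all lay below for 0 of 7, against 16.8% of all tested genes. The median log2 fold change was 0.57 over the 7 members and -0.01 over all tested genes.

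**Figure D1:**
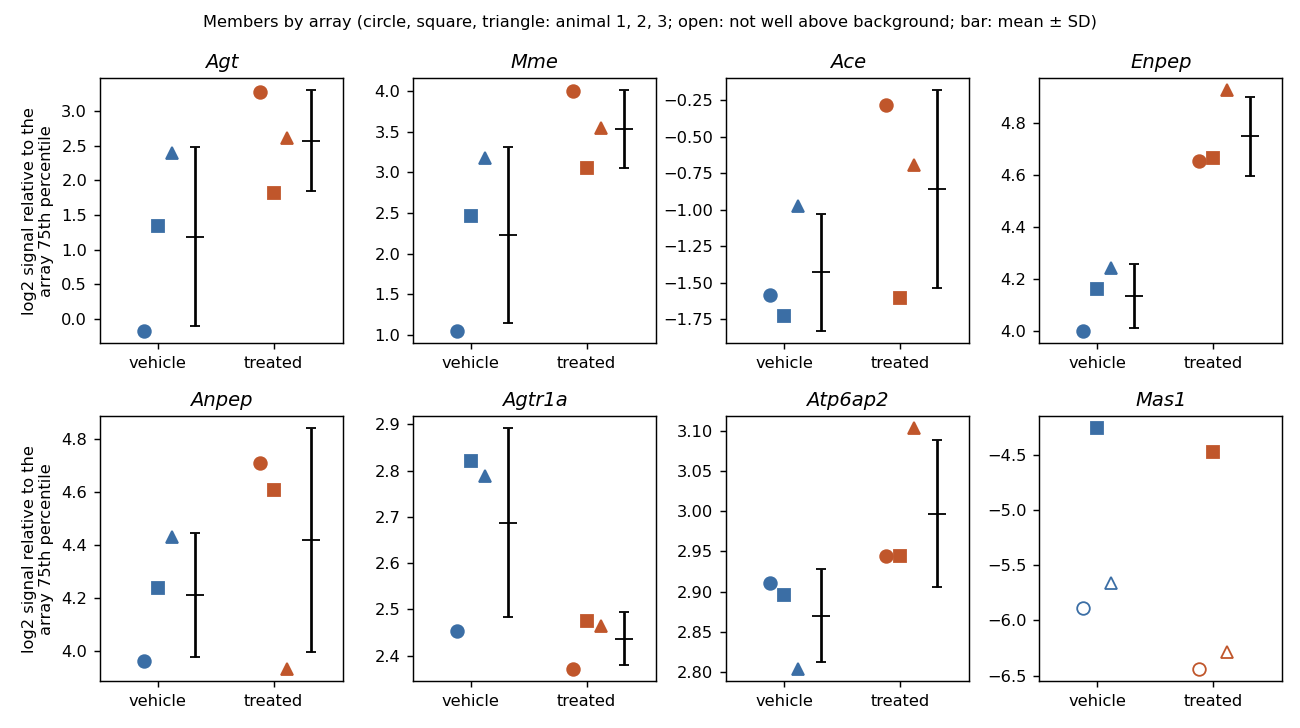
Log2 signal relative to the array's 75th percentile for the brightest probe of each member (vertical axes differ), by group, with 1 symbol per animal and the mean ± SD of 3 arrays beside it. Enpep shows 3 treated values from 4.65 to 4.92 above vehicle values of 4.001 to 4.24, while Agt and Mme overlap, with vehicle 1 far below the rest. For Mas1, open symbols were not well above background and no mean is drawn.

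Agt encodes angiotensinogen, the substrate of the whole cascade, made mainly in liver and also in the proximal tubule. Its brighter probe stood at -0.17, 1.34 and 2.40 for the vehicle animals against 3.27, 1.82 and 2.61 for the treated ones. The groups overlapped, since vehicle 3 exceeded treated 2, and the vehicle animals themselves spread over more than the difference between the groups. Vehicle cortex averaged 1.19 ± 1.29 (SD, n = 3) and treated cortex 2.57 ± 0.73 (SD, n = 3), a mean difference of 1.38 (log2, SE 0.70, 95% interval -0.33 to 3.09, adjusted p = 0.31). The dimmer probe repeated the order of the arrays, from -1.41 in vehicle 1 to 2.18 in treated 1, with a log2 fold change of 1.45. Without vehicle 1 the difference of the brighter probe was 0.70, and with slide as a block, which leaves treated 1 against the vehicle arrays, it was 2.08. In such tissue samples fewer cells of a type and less RNA per cell cannot be told apart.

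As liver is a main source of Agt mRNA, liver transcripts are set beside it. All 16 listed liver genes were well above background, and their summed signal was 37.3 to 65.8 times the 75th percentile in vehicle and 52.3 to 117 times in treated arrays. Albumin mRNA (Alb) stood at 3.49, 2.43 and -0.28 for the vehicle animals against 1.26, 2.12 and 3.92 for the treated ones. Transthyretin mRNA (Ttr) ran from -0.90 in vehicle 3 to 3.70 in treated 3. Like Alb, 12 of the 16 liver genes were highest in vehicle 1 among the vehicle animals, where Agt was lowest. The other way, 2 of the 16 (Apoh and F2) placed the vehicle animals in the same order as Agt, vehicle 1 lowest and vehicle 3 highest, and were highest in treated 1 among the treated animals, as Agt was. Apoh stood at -1.90, -1.83 and -0.66 for the vehicle animals against 0.90, 0.06 and 0.73 for the treated ones. F2 stood at 1.76, 2.08 and 2.77 for the vehicle animals against 2.25, 1.34 and 2.21 for the treated ones. A higher treated mean was found for 15 of the 16 (median 0.58), and without Tf the sums were 28.1 to 48.8 and 29.4 to 79.1. The treated arrays lay above the vehicle arrays for 2 of the 16 liver genes (Fga and Apoh) and below for 0. Among all tested genes these shares were 13.9% and 16.8%. Adipocytes also make angiotensinogen, and of 9 listed adipocyte genes 6 were tested, all above background on every array. Their summed signal spanned 203.6 to 230.7 in vehicle and 203.3 to 332.4 in treated arrays, most of it from Pck1, which the proximal tubule also expresses. Without Pck1 the sums did not overlap, at 1.87 to 2.59 in vehicle and 3.10 to 3.47 in treated arrays. Adiponectin (Adipoq) lay between -0.32 and -0.11 in vehicle and between -0.78 and 0.07 in treated arrays. Cidec, a lipid droplet gene, had -2.83, -1.42 and -0.36 in the vehicle animals and 0.66, -0.08 and 0.40 in the treated ones, so that it was lowest in vehicle 1 and highest in treated 1, as Agt was. Lpl also had the treated arrays higher, and the median over the 6 genes was 0.44. The part of either tissue in the Agt values was not tested.

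Ace encodes the converting enzyme that makes angiotensin II and is bound to endothelium and brush border. Its 3 probes did not give the same answer. The brightest (A_64_P098230) stood at -1.59, -1.73 and -0.97 for the vehicle animals against -0.28, -1.60 and -0.70 for the treated ones. Here treated 2 lay within the vehicle values, and the mean difference was 0.57 (log2, SE 0.38, adjusted p = 0.42). The second (A_43_P11457) stood at -3.77, -3.91 and -3.17 for the vehicle animals against -2.09, -2.30 and -2.44 for the treated ones. On that probe treated 2 stood with the other treated animals and the groups did not overlap, at a mean difference of 1.34 (log2, SE 0.21, 95% interval 0.82 to 1.86, adjusted p = 0.091). The third (A_64_P010531) again placed treated 2 (-3.88) among the vehicle arrays, and its mean difference was 0.88 (log2, SE 0.45, adjusted p = 0.32).

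All 3 Ace probes thus had a higher treated mean, and they disagreed on treated 2. What sets them apart was not tested. The difference of the brightest probe moved with single arrays, from 0.28 without treated 1 to 0.94 without treated 2, and it was 1.15 with slide as a block. With normexp background correction the second probe gave 0.79 and the third 0.51. Of the endothelial markers, 9 of 10 were tested and all were above background on every array. Their summed signals were 68.2 to 80.0 in vehicle and 80.3 to 95.4 in treated arrays. Plvap made up the gap, since the other 8 genes summed to 31.9 to 34.4 in vehicle and 30.1 to 34.2 in treated arrays. The treated arrays lay above the vehicle arrays for 3 of the 9 (Plvap, Flt1 and Ehd3), against 13.9% of all tested genes. The defining gene Pecam1 differed by 0.01 (SE 0.09), and the median over the 9 was 0.05. The part of endothelial content in the Ace values was not tested.

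**Figure D2:**
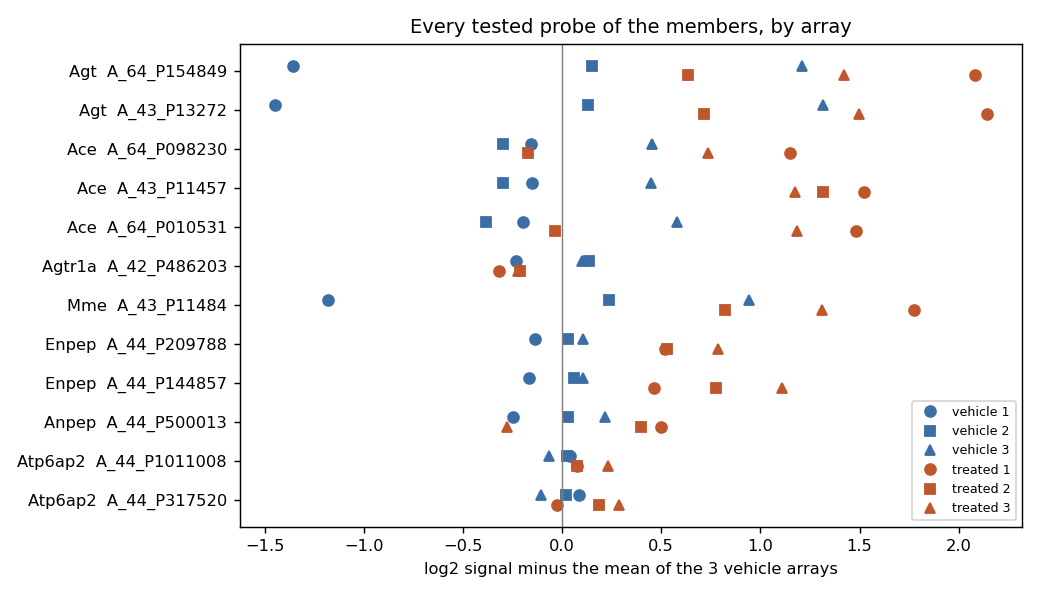
Log2 signal of every tested member probe minus the mean of its 3 vehicle arrays (horizontal axis), 1 row per probe, with vehicle arrays in blue and treated arrays in orange. The Enpep probes keep the groups apart in both rows, whereas treated 2 lies at the vehicle level for 2 of the 3 Ace probes.

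Enpep encodes aminopeptidase A, which removes the first aspartate of angiotensin II. It was the member whose groups lay apart on every probe. The brighter probe stood at 4.001, 4.16 and 4.24 for the vehicle animals against 4.65, 4.67 and 4.92 for the treated ones. The highest vehicle animal was below the lowest treated one by more than the spread within the vehicle group. The means were 4.14 ± 0.12 (SD, n = 3) and 4.75 ± 0.15 (SD, n = 3), a 1.53-fold difference (log2 fold change 0.61, SE 0.11, 95% interval 0.34 to 0.89, adjusted p = 0.099). The dimmer probe stood at 0.36, 0.59 and 0.64 for the vehicle animals against 0.99, 1.30 and 1.64 for the treated ones, a mean difference of 0.78 (log2, SE 0.18, adjusted p = 0.13).

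Treated 1, the treated animal on the same slide as the vehicle group, exceeded the vehicle mean by 0.52 on the brighter and by 0.46 on the dimmer Enpep probe. The brighter probe stayed between 0.50 and 0.70 in all 18 alternative settings. Its groups were apart in each, but most settings kept the same values or left arrays out and could not change that. The brighter probe passed the test in 1 of the settings, without treated 1 (0.66, limma adjusted p = 0.040). In that setting each group lay on a slide of its own and 4235 probes passed, so slide and treatment cannot be told apart there. The dimmer Enpep probe (adjusted p = 0.029) and the second Ace probe (adjusted p = 0.046) also passed in that setting. Beside Enpep, 3 of the 12 proximal tubule markers (Hnf4a, Slc6a19 and Slc5a12) had all treated arrays above the vehicle arrays, and 1 (Lrp2) had them all below. The shares of all tested genes were 13.9% and 16.8%. The part of tubule content in the Enpep values was not tested.

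Anpep encodes aminopeptidase N, an abundant brush border enzyme that takes the next residue of the angiotensin peptide. Its log2 signals were 3.96, 4.24 and 4.43 across the vehicle animals and 4.71, 4.61 and 3.93 across the treated ones. The groups overlapped fully, with treated 3 the lowest of the 6 arrays and treated 1 the highest. The mean difference was 0.21 (log2, SE 0.24, 95% interval -0.37 to 0.78, adjusted p = 0.64), which became 0.45 with treated 3 left out, 0.06 with treated 1 left out and 0.08 with vehicle 1 left out. Slide as a block gave 0.50.

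Mme encodes neprilysin, an endopeptidase that degrades natriuretic peptides and trims angiotensin I. Its log2 signals were 1.05, 2.47 and 3.17 across the vehicle animals and 4.002, 3.05 and 3.54 across the treated ones. As for Agt, vehicle 1 was lowest, treated 1 highest, and vehicle 3 lay above treated 2. The means of 2.23 ± 1.08 (SD, n = 3) and 3.53 ± 0.47 (SD, n = 3) gave a mean difference of 1.30 (log2, SE 0.56, 95% interval -0.07 to 2.67, adjusted p = 0.26). Without vehicle 1 the difference was 0.71, and with slide as a block 1.77. Podocytes also carry neprilysin, and the 7 podocyte markers had summed signals of 35.7 to 37.8 in vehicle and 35.8 to 53.9 in treated arrays. Without Podxl the sums were 18.6 to 19.2 and 19.6 to 22.8. All treated arrays were higher for 2 of the 7 and lower for 1, against 13.9% and 16.8% of all tested genes. Nphs1 differed by 0.02 (SE 0.11), and the median of the 7 was 0.16. The part of podocyte content in the Mme values was not tested.

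The sequences upstream of Mme and Enpep are shown because these genes stand for 2 of the array patterns among the peptidases. Mme was spread within the groups and Enpep was split between them, while Ace and Anpep each followed another order of the arrays. Each run is the 250 bases before the annotated gene start, 5′ to 3′ on the gene's strand, from RefSeq on build GRCr8. Mme lies on the plus strand (chr2:149872247-149872496) and Enpep on the minus strand (chr2:220526219-220526468). Capitals mark matches on either strand to any of 5 short motifs.
Mme: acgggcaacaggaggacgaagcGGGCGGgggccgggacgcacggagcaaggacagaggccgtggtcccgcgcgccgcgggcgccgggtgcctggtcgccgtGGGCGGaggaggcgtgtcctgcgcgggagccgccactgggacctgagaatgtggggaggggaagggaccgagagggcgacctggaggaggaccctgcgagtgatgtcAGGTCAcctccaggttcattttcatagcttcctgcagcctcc
Enpep: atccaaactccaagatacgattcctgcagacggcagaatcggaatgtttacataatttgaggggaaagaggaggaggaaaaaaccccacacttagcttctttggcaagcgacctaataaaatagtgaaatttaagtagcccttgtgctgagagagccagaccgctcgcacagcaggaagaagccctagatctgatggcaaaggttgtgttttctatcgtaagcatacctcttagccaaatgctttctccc

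The Mme window was 70.4% G and C and the Enpep window 45.2%, where the median of 33469 rat promoters was 51.2%. The Sp1 core GGGCGG matched at 2 places and the nuclear receptor core AGGTCA at 1 place upstream of Mme, with no overlap between matches. They occur in 30.5% and 14.1% of all promoters. Neither these nor TATAAA (12.9% of promoters), CCAAT (34.0%) or the HNF1 core GTTAAT (6.45%) were found upstream of Enpep. In the same window of Anpep, AGGTCA and GTTAAT matched at 1 place each. Promoter sequences matched 7 of the 8 members.

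Agtr1a encodes the main AT1 receptor of rodent kidney, and it was the tested member with a lower treated mean. Its log2 signals were 2.45, 2.82 and 2.79 across the vehicle animals and 2.37, 2.48 and 2.46 across the treated ones. The treated values lay close together, and vehicle 1 lay among them. The mean difference was -0.25 (log2, SE 0.12, 95% interval -0.54 to 0.04, adjusted p = 0.29). Slide as a block gave -0.32. Agtr1b, its close paralog, had a mean difference of -0.35 (log2, SE 0.14, adjusted p = 0.23) on its brighter probe and -0.46 (SE 0.09, adjusted p = 0.11) on its dimmer one, with the treated arrays below the vehicle arrays on both. Transcripts of these receptors are similar enough that their probes may share signal, which was not tested. Mesangial and smooth muscle cells carry the receptor, and 7 of their 8 listed markers were tested. Their summed signals did not overlap, at 4.87 to 5.32 in vehicle and 5.98 to 7.07 in treated arrays. The treated arrays lay above the vehicle arrays for 3 of the 7 (Tagln, Myh11 and Des) and below for 0. For all tested genes these shares were 13.9% and 16.8%. Without Tagln the sums were 4.01 to 4.45 and 4.50 to 4.84, and the median difference of the 7 was 0.13. The part of mesangial and smooth muscle content in the Agtr1a values was not tested.

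Mas1, the receptor for that shorter peptide, was well above background on vehicle 2 (-4.26) and treated 2 (-4.48), and on no other array. The other values, from -6.44 to -5.66, are measured signals that were not well above background, and no test was made. Agtr2, the second angiotensin II receptor, was well above background on 0 of the 6 arrays.

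Atp6ap2 encodes an accessory subunit of the vacuolar proton pump. Over the 6 arrays its brighter probe spanned 0.30, the smallest range among the 7 tested members at their brightest probe. The brighter probe stood at 2.91, 2.90 and 2.80 for the vehicle animals against 2.94, 2.94 and 3.10 for the treated ones. The treated arrays were above the vehicle arrays, but by less than the spread within either group, and the mean difference was 0.13 (log2, SE 0.08, 95% interval -0.07 to 0.33, adjusted p = 0.41). On the dimmer probe treated 1 (2.53) lay among the vehicle arrays, and the difference was 0.15 (SE 0.11), or -0.03 with slide as a block. Atp6ap1, another subunit of the pump, had -0.12 (SE 0.09).

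Of the other 27 listed genes of the renin-angiotensin and kinin systems, 22 were tested and 0 passed the limma test in either direction. At an unadjusted p under 0.05, 2 were higher and 3 lower in treated cortex, against 10.1% and 11.3% of all tested genes. The groups lay apart for 3 higher and 4 lower of the 22 genes, where 13.9% and 16.8% of all tested genes did so, and the median log2 fold change was -0.00 over the list. Among the higher genes was Prep, a prolyl endopeptidase (0.92, SE 0.33, adjusted p = 0.21). The lower genes were the bradykinin receptors Bdkrb1 (-0.51, SE 0.17, adjusted p = 0.19) and Bdkrb2 (-0.48, SE 0.15, adjusted p = 0.18), and Agtr1b. A second tested Bdkrb2 probe had -0.08 (SE 0.12), so the probes of that gene disagreed. The chymase and cathepsin G genes Cma1 and Ctsg, which can also make angiotensin II, were not well above background on any array.

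Of 26 other renal peptidase genes, 24 were tested and 0 passed the limma test in either direction. At an unadjusted p under 0.05, 5 of the 24 were higher and 0 lower, against 10.1% and 11.3% of all tested genes. The groups lay apart for 7 higher and 1 lower genes, against 13.9% and 16.8%, and the median log2 fold change of the list was 0.13. The 5 were Mep1a, a meprin subunit (0.47, SE 0.12), Acy3, an aminoacylase (0.52, SE 0.14), Blmh, a cysteine aminopeptidase (0.28, SE 0.09), Ggt1, which cleaves glutathione (0.59, SE 0.19), and Cndp1, a carnosine dipeptidase (1.56, SE 0.56). Their limma adjusted p-values lay between 0.15 and 0.21. Dpp4, another brush border peptidase, had 0.19 (SE 0.08).

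**Figure D3:**
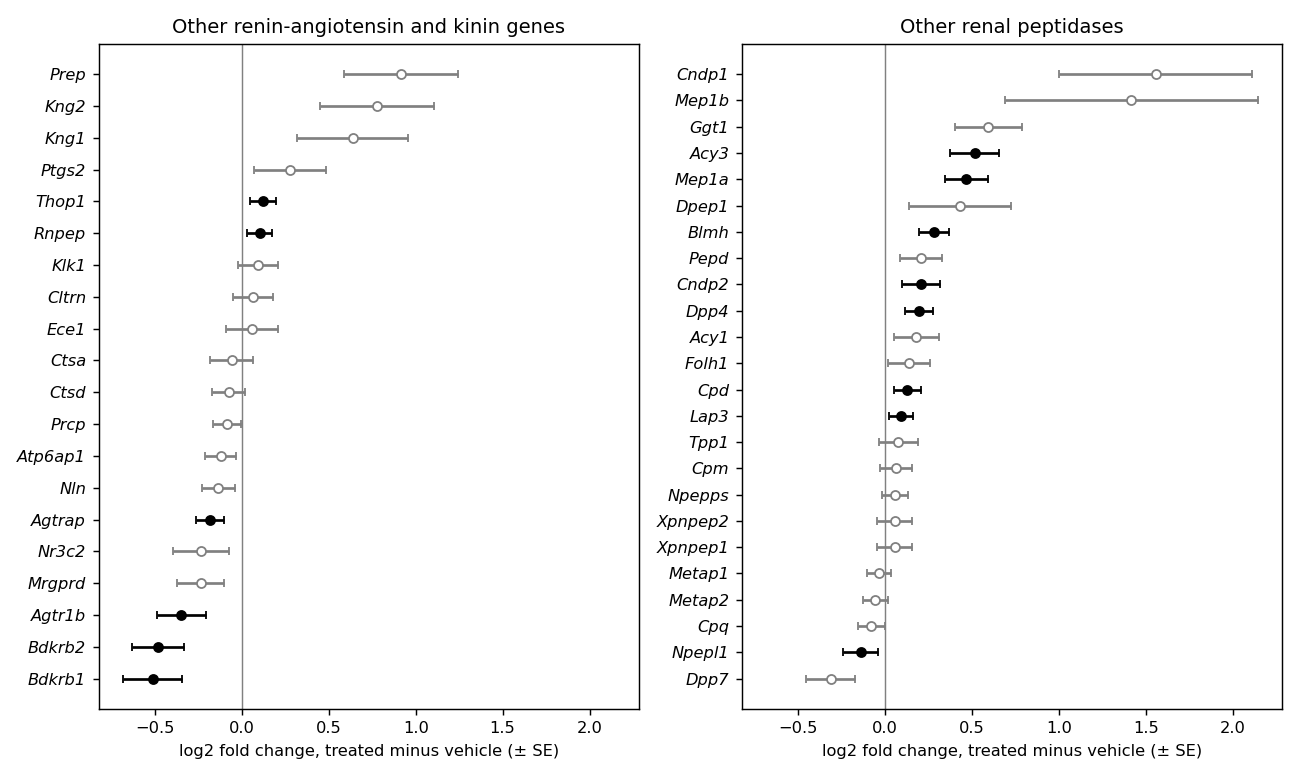
Log2 fold change, treated minus vehicle, ± SE for 20 tested genes of the renin-angiotensin and kinin list (left) and the 24 tested other renal peptidases (right). Filled symbols mark genes whose 3 treated and 3 vehicle arrays did not overlap, and no gene shown passed the adjusted test. Prep heads the left panel and Cndp1 the right, where Mep1b (1.42, SE 0.73, groups overlapping) comes next. Most of the remaining genes lie within 0.5 of 0.

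Agt and Mme placed the 6 arrays in the same order, from vehicle 1 through vehicle 2, treated 2, vehicle 3 and treated 3 to treated 1. Of all 12118 tested genes, 60 (0.495%) did so, a count made after the values were seen. Among the listed genes these were also Prep, Cndp1, Ggt1, Slco1a1, the proximal tubule marker Slc3a1 and the thick limb genes Umod and Slc12a1. Prep ran from 2.62 in vehicle 1 to 4.51 in treated 1, and Cndp1 from 0.45 to 3.53. Umod, which encodes uromodulin, stood at 8.02, 8.34 and 8.58 for the vehicle animals against 8.79, 8.49 and 8.69 for the treated ones. Of 10 listed thick limb and distal nephron genes 8 were tested, with sums of 440.6 to 571.7 in vehicle and 552.7 to 605.6 in treated arrays. The groups overlapped for all 8, where 13.9% of all tested genes lay apart higher and 16.8% lower. Without Umod the sums were 181.4 to 193.4 and 164.0 to 193.0, and the median difference of the 8 was -0.09.

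Markers of the straight proximal tubule (S3), where the tubule leaves the cortex for the outer stripe of the medulla, are given beside Agt and Mme. Of 9 listed S3 genes 7 were tested, all above background on every array. Their summed signals were 25.0, 55.9 and 91.8 in vehicle 1, 2 and 3 and 212, 90.1 and 99.9 in treated 1, 2 and 3. Most of the S3 sum beyond vehicle 1 came from Slc7a13, and without it the remaining 6 genes summed to 19.3, 17.2 and 15.0 for the vehicle animals against 40.5, 20.7 and 30.0 for the treated ones. Slc7a13, an amino acid transporter of S3, stood at 2.50, 5.27 and 6.26 for the vehicle animals against 7.43, 6.12 and 6.13 for the treated ones. The organic anion transporter Slco1a1 stood at -1.23, 1.37 and 2.26 for the vehicle animals against 3.59, 2.00 and 2.27 for the treated ones. With Slc22a7, these were the 3 of the 7 S3 genes that placed the vehicle animals in the same order as Agt and Mme. The other 4 did not. Acsm3 placed the vehicle animals in the opposite order (3.91, 3.48 and 2.71), as did Slc5a8 (1.60, 1.22 and 1.12), while Slc22a13 lay between -2.46 and -2.37. Cyp7b1 stood at -0.78, -0.45 and -0.76 for the vehicle animals against -1.06, -1.62 and -1.56 for the treated ones. Among the treated animals 6 of the 7 were highest in treated 1.

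Markers of the whole proximal tubule spread less. Slc34a1, the phosphate transporter of its brush border, lay between 8.21 and 8.30 in vehicle and between 7.82 and 8.39 in treated arrays, and Lrp2 (megalin) between 6.46 and 6.55 and between 6.06 and 6.35. The 12 proximal tubule markers summed to 1736 to 1756 in vehicle and 1625 to 1987 in treated arrays, or to 1381 to 1394 and 1277 to 1527 without Slc13a3. Among the 12, only Slc3a1 placed the vehicle animals in the order of Agt and Mme, at 7.49, 7.88 and 7.99. In the treated animals Slc3a1 stood at 8.29, 7.97 and 8.06. Vehicle 3 exceeded vehicle 1 by 3.76 for Slc7a13, 3.50 for Slco1a1, 2.57 for Agt and 2.12 for Mme. The same difference was 0.24 for Enpep and -0.04 for Slc34a1. Of the other S3 genes, Slc22a7 was also higher in vehicle 3, by 3.29. Acsm3 went from 3.91 in vehicle 1 to 2.71 in vehicle 3, and Slc5a8 from 1.60 to 1.12. Slc22a13 (-2.37 and -2.46) and Cyp7b1 (-0.78 and -0.76) hardly differed between these 2 arrays. The part of nephron segment content in the Agt and Mme values was not tested. Leukocyte markers, 5 of 8 tested, summed to 39.0 to 43.4 in vehicle and 29.4 to 45.8 in treated arrays, most of it from Cd74. Without Cd74 the sums were 2.78 to 3.70 and 2.19 to 3.02. All 5 had a lower treated mean (median -0.38), and 0 passed the adjusted test. At an unadjusted limma p under 0.05 there were 2, Ptprc (-0.49) and Cd2 (-0.93, groups apart), against 11.3% of all tested genes.

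**Figure D4:**
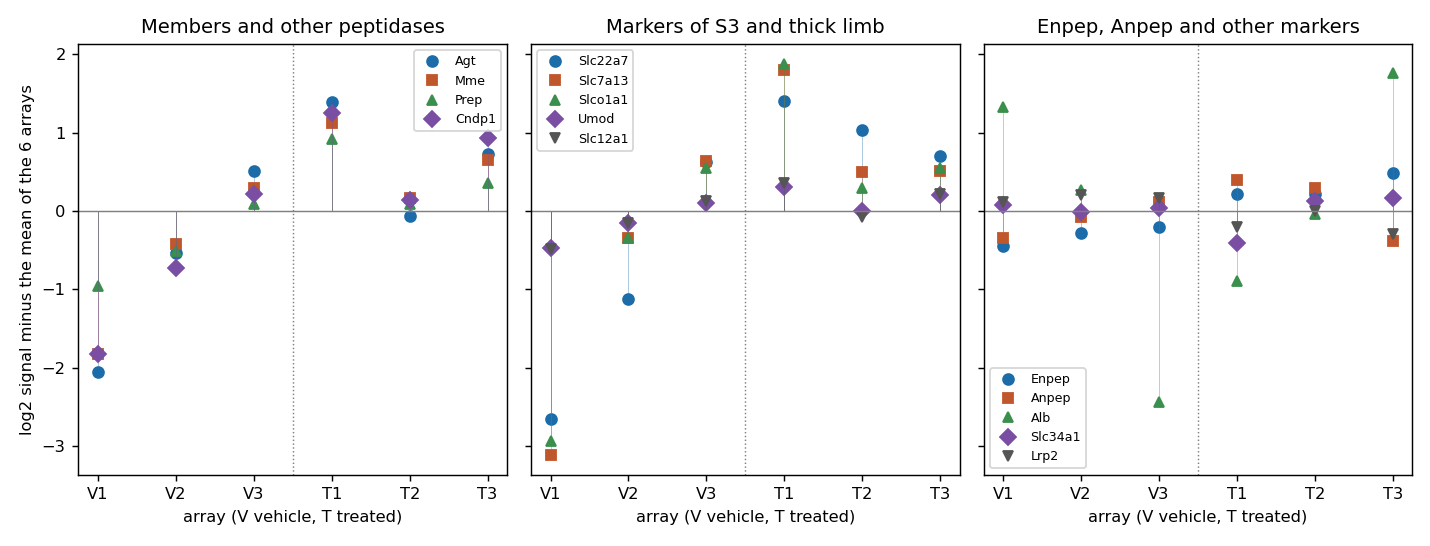
Log2 signal minus the gene's mean over the 6 arrays (vertical axis) for vehicle (V1 to V3) and treated (T1 to T3) arrays. Agt, Mme, Prep and Cndp1 (left) and 3 of 7 S3 and 2 of 8 thick limb markers (middle, chosen for this order) are lowest in vehicle 1 and highest in treated 1, while Enpep, Anpep, Alb, Slc34a1 and Lrp2 (right) are not ordered this way.

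By the root mean square difference of centred log2 signals over the 6 arrays, Mme was closest to Aadat (0.088), an aminotransferase, and to Gclc (0.102), the catalytic subunit of the first enzyme of glutathione synthesis. Gclc stood at 4.56, 6.09 and 6.92 for the vehicle animals against 7.76, 6.87 and 7.16 for the treated ones. Agt was closest to Syce1 (0.089) and then to Gclc (0.193). Enpep was closest to Mgst1, a microsomal glutathione transferase (0.034), and to Stard10, a lipid transfer protein (0.039). Mgst1 stood at 3.75, 3.82 and 3.91 for the vehicle animals against 4.32, 4.35 and 4.58 for the treated ones. Ace was closest to Tnfsf15 (0.125) and Dnd1 (0.165), and Agtr1a to Rspry1 (0.048) and Wsb2 (0.054). Anpep was closest to Rps12l4 (0.038) and Gstt2 (0.078), and Atp6ap2 to Rapgef2 (0.023) and Gas5 (0.025). The order of the arrays for Enpep, vehicle 1 to 3 and then treated 1 to 3, was shared by 177 genes (1.46%), Dpp4, Plvap and Ptpro among the listed ones. With 6 arrays and 12118 genes a close match is a description of these arrays only.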

How the data were processed

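Per the labels' protocols, RNA was labelled with Cy3 and hybridised alone. Per the file headers, the authors extracted spot intensity values, linear and background-subtracted, with Agilent Feature Extraction 10.7.1.1 (the submitters' processing notes name 10.7). The deposited series table holds intensity values of the same arrays on a linear scale, each column a constant multiple of the processed signal (correlation of log2 values 1.00). The median of its columns was 0.11, 0.1081, 0.1094 (the vehicle animals in order), 0.1093, 0.1053, 0.1047 (the treated animals in order). Scale and centring are thus known, and single-colour values have no direction to settle. Every column belonged to a known sample.

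Processed signals of 61537 non-control probes were scaled here to the 75th percentile of their array and put on the log2 scale. Outlier-flagged probes (11) were left out, and a probe was tested when well above background on all 3 arrays of a group, which gave 40643. No spot was saturated. Accessions matched RefSeq (GRCr8) symbols for 28206 probes (33331 had none, 0 several). A gene was represented by its probe with the highest mean. Treated and vehicle arrays were fitted in limma 3.58.1 under R 4.3.3 (lmFit and eBayes, two-sided), using Benjamini-Hochberg adjustment over all tested probes and a threshold of 0.05. Precision is limited by the 3 arrays in each group.

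Named genes were the members, up to 6 genes per list with an unadjusted p under 0.05, fixed markers, and the 2 genes of closest pattern to each tested member. Some genes of this rule are not reported here. Other genes were named after their values were seen. Members and lists were chosen with earlier results of these data known. Alternatives covered normalization, background correction (normexp on the median spot signal, offset 50), source of values, filters, variance model, slide, replicate number, probe choice and each array left out. On simulated data with 200 changed probes among 40643, calls were made for 56% of probes shifted by 1 on the log2 scale and for 94% shifted by 2, besides 8 unshifted ones. The simulated noise was drawn independently for each probe and array, with no slide effect and no variation shared between genes. These shares may therefore not hold for the real arrays.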

Additional observations from a re-analysis of the deposited data

How the results depend on the processing

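The count of probes called, 3 in the values reported, was 17 with median centring, 136 with normexp and 156 with a trended, robust variance model. It was 1 when dim probes were kept, 0 when a probe had to be above background on all 6 arrays, 1 with slide as a fixed block and 0 on slide 1 alone. With the replicate block it was 0, and no member was called with or without that block. Same-numbered arrays correlated at -0.21, 0.01 and -0.16 in their deviations from the group means. With 3 arrays per group these values cannot show whether same-numbered animals were paired. Without 1 array in turn it ranged from 1 to 4235, the highest without treated 1. At the brightest probe no tested member was called in these settings except Enpep without treated 1 (where a dimmer Ace probe also passed), so the count of members called ranged from 0 to 1 over the arrays left out. The number of the 7 member genes whose groups lay apart in either direction was 2 in the values reported and 1 with the mean of all probes of a gene. It was 2 to 5 with 1 array left out, and 7 on slide 1 alone, where Agtr1a was lower. Fewer arrays make this easier for any gene. The share of all tested genes was not counted in these settings, so the counts are not read as particular to the members. With slide as a fixed block and on slide 1 alone, the median log2 fold change was -0.14 for the other renin-angiotensin and kinin genes and 0.082 for the other renal peptidases, and the dimmer Atp6ap2 probe reversed to -0.026. Both settings leave treated 1 against the vehicle arrays, so these values rest on 1 treated animal. All 7 members kept their direction at their brightest probe in all 18 settings. These are not 18 separate checks, since the filters, the variance model and the replicate block leave a fold change as it was. Slide 2 held treated arrays only, so no comparison could be made within it. The Mas1 probe, near background, gave no comparison.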
